A study of Arabidopsis thaliana with 24 samples.

Results

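The comparison described here is elf18 against water, both infiltrated into leaves of wild type (Columbia-0) Arabidopsis thaliana and sampled 2 h later. It holds 6 of the 24 ATH1 arrays of the series, 3 with 10 µM elf18 and 3 with water, chosen by the labelled genotype and treatment. Plants were 3 weeks old, grown on soil at 22 °C with 16 h of light and 8 h of dark, and mature leaves were taken. Both groups were infiltrated, so the wounding and wetting of the leaf are shared by them. The other groups used for comparison are the tbf1 mutant with elf18 or water at the same dose and time, and wild type sprayed with 1 mM salicylic acid (SA) or water and sampled after 6 h, each with 3 arrays. The labels give the mutant no allele, and the labelled replicates are biological without saying how plants were pooled. Values of p therefore reflect only how far arrays spread within groups, which may be technical. In the main fit this spread, and the SE given after ±, is pooled over all 24 arrays. It is not that of the compared groups alone.

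Plants sense bacteria through receptor kinases at the cell surface. elf18 is the acetylated N-terminal peptide of bacterial elongation factor Tu, and in Arabidopsis and its relatives it is bound by the receptor kinase EFR, which pairs with the co-receptor BAK1. The complex signals through cytoplasmic kinases such as BIK1, calcium influx, an oxidative burst and MAP kinases to a broad change in transcription that includes defence genes, and growth and photosynthesis genes are known to be repressed by such signals.

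Across 22746 probe sets the difference elf18 minus water passed an adjusted p below 0.05 in 13221 (58.1%), of which 7105 were higher with elf18 (31.2%) and 6116 lower (26.9%). Most of these were small. Changes of at least 2-fold were called higher in 1196 probe sets (5.26%) and lower in 2418 (10.6%), and changes of at least 8-fold in 14 and 35. The values of the groups did not overlap in 33.2% of all probe sets with elf18 above water and in 28.1% with elf18 below it. The median difference over all probe sets was 0.13 on the log2 scale, so small rises are to be read against that shift. Counts of called genes in the groups below are to be read against 31.2% higher and 26.9% lower over all genes. A listed gene counts as measured where it matched a gene named by the annotation, which left most entries of some lists unmatched. A probe set's value is its log2 level relative to its own median over the 24 arrays. It therefore compares arrays and says nothing of how abundant a transcript is, and markers of leaf or of other cell types could not be checked as present or absent. In these leaf samples, fewer cells of a type and less RNA per cell cannot be told apart.

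Array properties moved together with the treatment in this comparison. An index of how complete the labelled RNA was, the signal of 5' minus 3' probe sets averaged over 6 control pairs for actin, GAPDH and ubiquitin, stood at 0.31, 0.31 and 0.30 on the water arrays and at -0.81, -1.02 and -1.12 on the elf18 arrays. The groups did not overlap, with a difference of -1.29 (exact two-sided permutation p = 0.1, the smallest that 3 against 3 arrays can give). The mean SD over probe sets was 0.205 among the elf18 arrays and 0.118 among the water arrays. The lowest index values of the series were those of sprayed tbf1 leaves, which had no elf18 and are not compared here. They stood at -1.34, -1.83 and -1.83 with water and at -1.58, -1.50 and -1.50 with SA. When this index was added to the model as a covariate, written below as adjustment for the index, 1804 of 22746 probe sets were called higher and 1970 lower. Counts after adjustment in the gene groups below are to be read against these. The shares of 31.2% and 26.9% belong to the fit without the index. The fit takes 1 slope for the index from its spread within all 8 groups of the series, not only the 2 compared here. Within these 2 groups the index varied far less than between them, so differences after adjustment are less precise. A call lost by adjustment can therefore go with a larger difference, as for PUB24, at 0.42 before and 0.90 after it (adjusted p = 0.0623). Such a loss does not tell RNA quality from treatment.

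The share of genes called in each direction also moved with gene length. Of 13264 nuclear genes with a length in RefSeq (TAIR10.1), split into 10 bins by length, the bin of the shortest, up to 897 bases, had a median difference of 0.34, and 52.9% of its genes were called higher against 1.2% lower. The bin of the longest, from 4199 bases, had a median of -0.03, with 19.3% higher and 33.8% lower. Spearman's rho between length and the difference was -0.35 across these genes, which come from the same 6 arrays and are not independent replicates. These 2 bins had medians of 0.21 and -0.12 for elf18 in tbf1, and of -0.02 and 0.02 for SA in wild type. Adjusted for the index, the elf18 medians in wild type were 0.26 and -0.13. What part RNA completeness or gene length plays in any change below was not tested. Values after adjustment for the index, gene lengths or both are given beside some of the gene groups below, and not beside all.

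**Figure D1:**
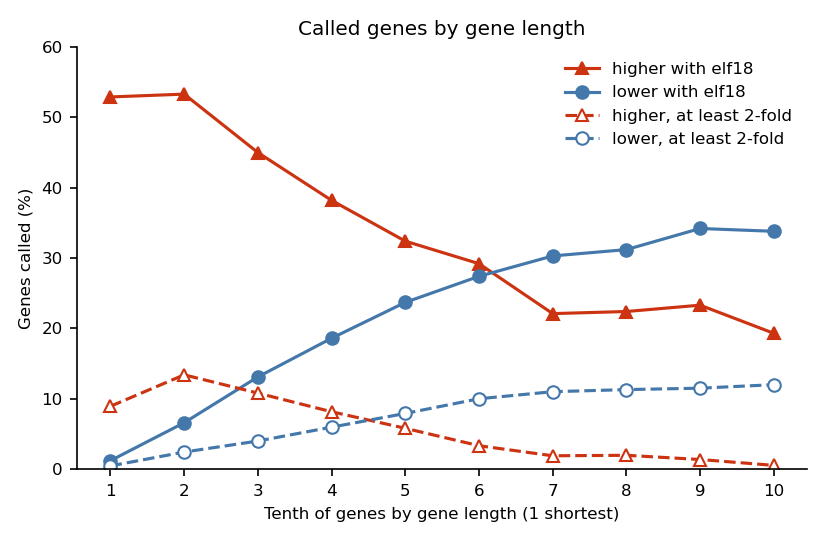
Percent of nuclear genes called higher (red triangles) or lower (blue circles) with elf18 than with water in wild type, in 10 bins of gene length from the shortest (1) to the longest (10); dashed lines with open symbols count only changes of at least 2-fold. The share called higher goes from 52.9% in the shortest bin to 19.3% in the longest, and the share called lower from 1.2% to 33.8%.

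Genes of elf18 perception changed in both directions at 2 h. Of 54 listed entries for perception and early signalling 6 were measured. Among these 6 genes 2 were higher and 2 lower, where 31.2% and 26.9% of all genes were. Their median was -0.08 against 0.13 over all probe sets. EFR, the elf18 receptor, stood at 0.51, 0.46 and 0.80 with water and -0.01, 0.69 and 0.38 with elf18. The groups overlapped, and the difference of -0.23 ± 0.17 (adjusted p = 0.235) was not called. BIK1, the cytoplasmic kinase that receptor complexes phosphorylate, stood at 1.24, 1.40 and 1.53 with water and 1.00, 0.91 and 0.57 with elf18, a difference of -0.56 ± 0.12 (adjusted p = 0.000248). Every elf18 array lay below every water array. FER, a receptor kinase that binds RALF peptides and scaffolds immune receptor complexes, stood at 0.69, 0.84 and 0.85 with water and -0.55, -0.54 and -0.53 with elf18 and fell 2.52-fold, a difference of -1.33 ± 0.14 (adjusted p = 8.63e-09). The 3 elf18 arrays lay within 0.02 of each other and well below water.

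PUB22, PUB23 and PUB24 are related U-box ubiquitin ligases that dampen pattern-triggered signalling. PUB22 stood at 2.39, 2.49 and 2.64 with water and 3.06, 3.34 and 3.40 with elf18 and rose 1.69-fold, by 0.76 ± 0.15 (adjusted p = 0.000125), without overlap of the groups. PUB24 stood at 0.23, 0.12 and 0.05 with water and 0.55, 0.70 and 0.42 with elf18 and rose by 0.42 ± 0.11 (adjusted p = 0.00322), also without overlap. PUB23 stood at 2.79, 2.86 and 2.83 with water and 2.90, 2.91 and 2.88 with elf18, where elf18 lay above water by a margin of 0.07 ± 0.12 that was not called (adjusted p = 0.614). Quantile normalization ended the calls of PUB22 (0.34, adjusted p = 0.0637) and PUB24 (0.22, adjusted p = 0.142), and it called EFR (-0.46, adjusted p = 0.0109) and PUB23 (-0.36, adjusted p = 0.00341) lower.

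Of 40 listed entries for marker genes of pattern-triggered immunity only 5 were measured, so most of them were not examined. Of these 5 genes 1 was higher and 4 lower, where 31.2% and 26.9% of all genes were. WRKY22, a transcription factor downstream of the MAP kinase cascade, stood at 2.73, 3.03 and 2.91 with water and 3.50, 3.55 and 3.39 with elf18 and rose 1.51-fold (0.59 ± 0.14, adjusted p = 0.00115). All elf18 values exceeded all water values, but the call was lost under quantile normalization (0.18, adjusted p = 0.24). WRKY53, a factor of defence and leaf senescence, stood at 0.67, 0.49 and 0.71 with water and 0.31, 0.21 and 0.33 with elf18, a difference of -0.34 ± 0.13 (adjusted p = 0.0258) that was lost without water replicate 1 (adjusted p = 0.0711), water replicate 3 (adjusted p = 0.0937) or elf18 replicate 2 (adjusted p = 0.0789). CML38, a calmodulin-like calcium sensor, stood at 2.70, 2.41 and 2.49 with water and 1.51, 1.17 and 1.48 with elf18 and fell 2.21-fold, a difference of -1.14 ± 0.13 (adjusted p = 3.02e-08). Its relative CML37 changed by -0.65 ± 0.13 (adjusted p = 0.000228) and the zinc finger repressor STZ by -0.40 ± 0.11 (adjusted p = 0.00262), each without overlap. None of these 11 perception and marker genes was called after adjustment for the index, where BIK1 became positive (0.21, adjusted p = 0.697) and PUB22 negative (-0.44, adjusted p = 0.434).

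Several of these genes had a higher mean in water-infiltrated than in water-sprayed wild type leaves. PUB22 had a mean of 2.51 after water infiltration and -2.97 after water spray, CML38 2.53 and -2.15, WRKY22 2.89 and -2.34, and PUB23 2.82 and -2.46. Spray and infiltration also differ in time, 6 h against 2 h, so delivery and time cannot be told apart, and this contrast was not tested.

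**Figure D2:**
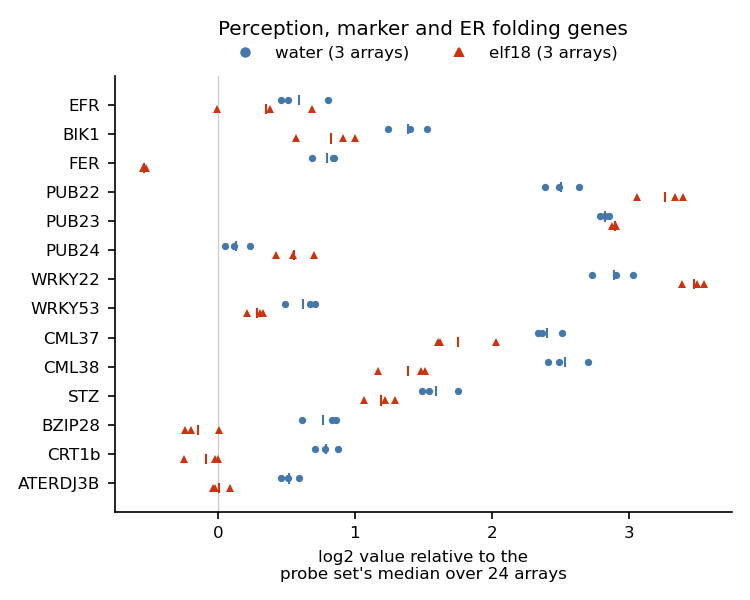
Values of each array for perception, marker and ER folding genes in wild type, as log2 relative to the probe set's median over 24 arrays; blue circles are the 3 water arrays, red triangles the 3 elf18 arrays, and ticks their means. PUB22 and WRKY22 lie higher with elf18, FER and CML38 lower, and EFR overlaps.

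EFR is folded in the endoplasmic reticulum (ER) with the help of calreticulin and the ERdj3b complex, and bZIP28 and bZIP60 are factors that induce ER chaperones. Of 23 listed entries for ER folding and its regulators 4 were measured, with a median of -0.69. Of these 4 genes 3 were lower and 1 higher, where 26.9% and 31.2% of all genes were. They include the factors BZIP28 and BZIP60, and whether the calreticulin CRT1b acts on EFR was not tested. The count is therefore not one of EFR folding genes alone. BZIP60 stood at -0.01, -0.04 and 0.03 with water and 0.74, 0.95 and 0.82 with elf18 and rose 1.8-fold, by 0.85 ± 0.09 (adjusted p = 3.77e-08). BZIP28 stood at 0.61, 0.83 and 0.86 with water and 0.01, -0.20 and -0.24 with elf18 and changed by -0.91 ± 0.13 (adjusted p = 2.12e-06). The groups were apart in both, in opposite directions. CRT1b, a calreticulin, changed by -0.88 ± 0.19 (adjusted p = 0.000352), and ATERDJ3B, the DnaJ partner of BiP, by -0.51 ± 0.21 (adjusted p = 0.0442). The ATERDJ3B call was lost on leaving out any 1 of the 6 arrays (adjusted p = 0.0575 without elf18 replicate 1 to adjusted p = 0.106 without water replicate 1). After adjustment for the index ATERDJ3B was called higher (1.48, adjusted p = 0.03), CRT1b was positive (0.67, adjusted p = 0.335) and BZIP28 was not called (-0.23, adjusted p = 0.715).

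The largest rises were mostly in genes that the annotation used here names by locus number alone. AT2G28710 stood at -0.23, -0.37 and -0.37 with water and 3.99, 4.03 and 3.91 with elf18, a rise of 19.7-fold (4.30 ± 0.09, adjusted p = 2.31e-20). AT5G62150 rose 10.9-fold (3.45 ± 0.15, adjusted p = 1.83e-15) and AT3G18250 10.8-fold (3.44 ± 0.10, adjusted p = 5.39e-18). In each of them the replicates of a group were far closer to each other than to the other group. PDF1.4, which encodes a small cysteine-rich peptide of the plant defensin family, stood at 0.32, 0.10 and 0.23 with water and 3.48, 3.44 and 3.49 with elf18 and rose 9.55-fold, by 3.26 ± 0.14 (adjusted p = 4.25e-15). NRT2.5, a high-affinity nitrate transporter, stood at 0.66, 0.09 and 0.66 with water and 3.68, 3.48 and 3.40 with elf18 and rose 8.27-fold, by 3.05 ± 0.17 (adjusted p = 1.37e-13). The remaining 11 of the 16 largest rises lay between 2.71 (AT3G07590) and 3.39 (AT1G64405), among them AT1G28390, AT2G44380, AT1G78410, AT5G60630, AT1G14200, AT4G15140, AT1G67920, AT3G13950 and AT2G41730. The 16 genes had lengths of 367 to 2310 bases with a median of 1014, against 2107 over all nuclear genes.

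More of the largest falls carried a gene symbol in that annotation. BGLU44, a beta-glucosidase, stood at 1.17, 0.96 and 1.30 with water and -2.61, -3.06 and -2.97 with elf18 and fell 16.2-fold, a difference of -4.02 ± 0.13 (adjusted p = 4.34e-17). PRXR1, a secreted class III peroxidase, stood at 1.28, 1.47 and 1.47 with water and -2.25, -2.60 and -2.58 with elf18 and fell 14.8-fold, a difference of -3.88 ± 0.13 (adjusted p = 1.2e-16). EXLA1, an expansin-like wall protein, stood at 2.77, 2.58 and 2.75 with water and -0.79, -0.88 and -0.79 with elf18 and fell 11.4-fold, a difference of -3.52 ± 0.12 (adjusted p = 6.13e-17). All 3 went from above the series median with water to below it with elf18. CHI, a chitinase at locus AT2G43570, stood at 2.21, 2.37 and 2.34 with water and -0.81, -1.16 and -0.96 with elf18 and fell 9.71-fold, a difference of -3.28 ± 0.22 (adjusted p = 5.64e-12). RING1, a membrane-bound RING ubiquitin ligase, fell 7.57-fold (-2.92 ± 0.16, adjusted p = 2.06e-13).

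AT1G29660 varied most among the large falls, at 0.86, 1.12 and 1.20 with water and -1.43, -3.37 and -3.28 with elf18. Replicate 1 with elf18 was well above the other 2, but still below every water array, and the difference was -3.75 ± 0.28 (adjusted p = 3.6e-11). That SE is pooled over all groups, while the SD among the elf18 arrays was 1.1. AT1G73600 changed by -3.64 ± 0.15 (adjusted p = 7.01e-16), AT3G26450 by -3.35 ± 0.21 (adjusted p = 1.34e-12) and AT4G16190 by -3.16 ± 0.12 (adjusted p = 5.12e-16). The other 7 of the 16 largest falls, AT2G32150, AT1G04430, AT1G61890, AT2G44500, AT3G59350, AT2G34930 and AT1G65230, lay between -3.09 and -2.93. The lengths of the 16 ran from 1143 to 4421 bases with a median of 2462. CHI (-1.26, adjusted p = 0.0808), AT1G29660 (-2.11, adjusted p = 0.0598) and AT3G59350 (-1.52, adjusted p = 0.113) were not called after adjustment for the index.

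**Figure D3:**
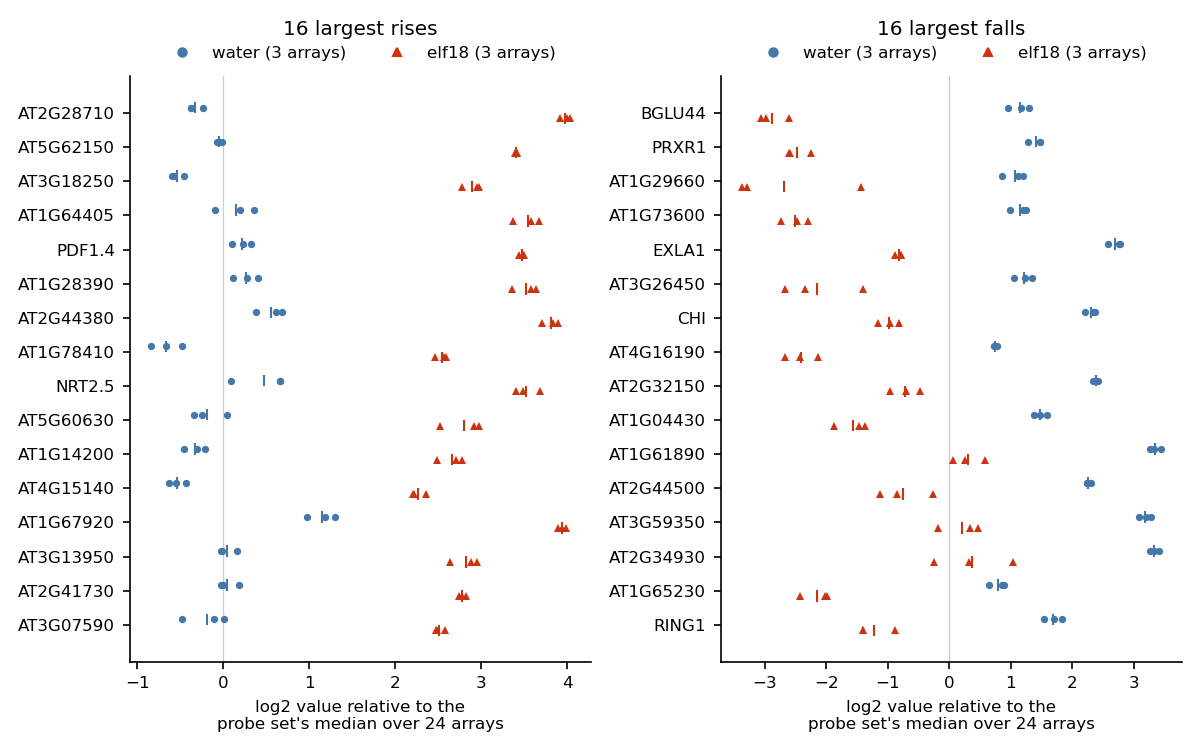
Values of each array for the 16 largest rises (left) and the 16 largest falls (right) among named genes called with groups that do not overlap, as log2 relative to the probe set's median over 24 arrays; blue circles are water, red triangles elf18, ticks the means of 3 arrays. AT2G28710 is near 4 with elf18 and below 0 with water, and BGLU44 goes from about 1 with water to about -3 with elf18.

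Defensins and thionins are small antimicrobial peptides that are stored or secreted, and several are used as markers of jasmonate and ethylene signalling. Of 15 measured members 9 were higher and 0 lower, with a median of 0.64 against 0.13 over all probe sets. PDF1.2 stood at 0.65, 0.37 and 0.34 with water and 2.58, 2.53 and 2.61 with elf18 and rose 4.34-fold, by 2.12 ± 0.13 (adjusted p = 1.84e-12). PDF1.2b stood at -0.09, -0.14 and -0.16 with water and 2.23, 2.36 and 2.41 with elf18 and rose 5.51-fold, by 2.46 ± 0.09 (adjusted p = 2.55e-16). PDF1.2 and PDF1.2b are near-identical copies, so their probe sets may share transcripts. THI2.2, a thionin, stood at -1.13, -1.18 and -1.28 with water and 0.21, -0.10 and 0.19 with elf18 and rose by 1.30 ± 0.11 (adjusted p = 5.36e-10). In all of these the elf18 arrays lay above the water arrays. The median gene length of the list was 839 bases. In the bin of the shortest genes 52.9% were higher and 1.2% lower, against 31.2% and 26.9% over all genes. Adjusted for the index, 4 members were called higher and 0 lower, and THI2.2 was not called (0.89, adjusted p = 0.0626).

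Short signalling peptides of the RALF, CLE and EPF families act on receptor kinases, RALF peptides on FER. Of 18 measured genes 12 were higher and 2 lower, with a median of 0.54 and a median length of 889 bases. The bin of the shortest genes had 52.9% higher and 1.2% lower, with a median of 0.34, and all genes 31.2% and 26.9%. RALFL31 stood at -0.12, -0.19 and -0.19 with water and 1.74, 1.66 and 1.52 with elf18 and rose 3.5-fold, by 1.81 ± 0.13 (adjusted p = 3.18e-11). RALFL32 rose by 1.63 ± 0.10 (adjusted p = 2.41e-12), RALFL24 by 0.96 ± 0.10 (adjusted p = 1.21e-08) and CLE26 by 1.33 ± 0.11 (adjusted p = 1.02e-10). RALFL22 went the other way, at 1.23, 1.13 and 1.22 with water and -0.24, -0.26 and -0.64 with elf18, a fall of 2.97-fold (-1.57 ± 0.11, adjusted p = 2.25e-11). Its groups did not overlap, so the RALF-like genes included both clear rises and a clear fall. STOMAGEN, a peptide that promotes stomata, stood at -0.31, -0.47 and -0.57 with water and -0.25, 0.31 and 0.53 with elf18 and rose by 0.65 ± 0.15 (adjusted p = 0.000555). Its elf18 replicate 1 lay close to the water values. It turned negative after adjustment for the index (-0.11, adjusted p = 0.886), where 6 of the 18 genes were higher and 1 lower.

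Transcription factors changed in both directions. bZIP44 stood at -0.29, -0.23 and 0.02 with water and 2.23, 2.09 and 1.61 with elf18 and rose 4.42-fold, by 2.14 ± 0.12 (adjusted p = 3.02e-13). HYH, the homologue of the light-signalling factor HY5, stood at 0.54, 0.37 and 0.50 with water and 2.18, 2.46 and 2.64 with elf18 and rose 3.88-fold, by 1.96 ± 0.14 (adjusted p = 9.61e-12). The AP2 factor tny stood at 0.34, -0.09 and -0.03 with water and 2.21, 2.27 and 2.24 with elf18 and rose 4.49-fold, by 2.17 ± 0.16 (adjusted p = 1.83e-11). All 3 were separated from water in every array. ORA47, an AP2/ERF factor that activates jasmonate synthesis genes, changed by -1.12 ± 0.13 (adjusted p = 1.11e-07).

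Of 7 measured WRKY factors 4 were higher and 3 lower, where 31.2% and 26.9% of all genes were, with a median of 0.34. WRKY6, linked to senescence and phosphate responses, stood at 0.50, 0.35 and 0.35 with water and 1.38, 1.51 and 1.50 with elf18 and rose by 1.06 ± 0.14 (adjusted p = 4.75e-07). WRKY47 rose by 0.87 ± 0.15 (adjusted p = 2.41e-05). WRKY20 stood at 0.06, 0.28 and 0.19 with water and -1.27, -0.66 and -1.53 with elf18 and changed by -1.33 ± 0.16 (adjusted p = 1.21e-07), and ZAP1 (WRKY1) stood at 0.28, 0.09 and 0.34 with water and -0.04, -1.26 and -0.97 with elf18 and fell 1.99-fold (adjusted p = 0.000174). Within the elf18 group, ZAP1 had 1 array near the water values. Under quantile normalization 2 WRKY genes were higher. After adjustment for the index 0 were higher and 1 was lower, WRKY6 (1.01, adjusted p = 0.0989) and WRKY47 (1.15, adjusted p = 0.079) were not called, and ZAP1 turned positive (0.35, adjusted p = 0.701).

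Hormone genes gave a mixed picture. Of 9 genes measured among 54 listed entries for the jasmonate pathway 4 were higher and 4 lower. The shares over all genes were 31.2% and 26.9%. The rises included the defensin outputs PDF1.2, PDF1.2b and PDF1.4. OPCL1, which activates jasmonate precursors for beta-oxidation, stood at 1.75, 1.77 and 2.16 with water and -0.13, 0.05 and 0.05 with elf18 and fell 3.74-fold, a difference of -1.90 ± 0.13 (adjusted p = 1.36e-11). JMT, which methylates jasmonate, stood at 1.57, 1.43 and 1.69 with water and -0.01, 1.50 and 0.27 with elf18. Replicate 2 with elf18 lay within the water range, and the difference was -0.98 ± 0.25 (adjusted p = 0.00186), with an SD of 0.8 among the elf18 arrays. JRG21, a jasmonate-regulated gene that is not among the 9, rose by 1.58 ± 0.14 (adjusted p = 8.84e-10). EIN3, the central transcription factor of ethylene signalling, stood at 0.45, 0.51 and 0.61 with water and -1.33, -0.60 and -1.32 with elf18 and fell 3.04-fold, a difference of -1.60 ± 0.18 (adjusted p = 3.02e-08). Neither JMT (-1.47, adjusted p = 0.19) nor EIN3 (-0.80, adjusted p = 0.298) was called after adjustment for the index.

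Of 5 genes measured among 47 listed entries for the salicylic acid pathway 1 was higher and 0 lower. Across all genes 31.2% were higher and 26.9% lower. GRX480, a glutaredoxin induced by SA, rose by 0.37 ± 0.10 (adjusted p = 0.00428), a call lost under quantile normalization (0.09, adjusted p = 0.439) and after adjustment for the index (0.67, adjusted p = 0.139). UGT76B1, a glycosyltransferase that acts on SA and on isoleucic acid, stood at 0.03, 0.16 and 0.37 with water and -0.28, -0.63 and -0.45 with elf18. Every elf18 array lay below every water array, but the difference of -0.64 ± 0.35 (adjusted p = 0.125) was not called. It was called lower with the 6 arrays alone (-0.64, adjusted p = 0.0037), with array weights (-0.64, adjusted p = 0.0489) and under quantile normalization (-0.62, adjusted p = 0.0463), and called higher after adjustment for the index (2.75, adjusted p = 0.0139), so its direction depended on the fit. ARL, an ARGOS-like gene of organ growth, stood at 0.29, 0.05 and 0.31 with water and 2.31, 2.50 and 2.21 with elf18 and rose 4.36-fold, by 2.13 ± 0.11 (adjusted p = 3.22e-14).

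Calmodulin-like proteins bind calcium and relay its signals. Of 8 measured members 4 were higher and 3 lower, with a median of 0.44 and a median length of 978 bases. Length bin 2 had 53.3% of genes higher and 6.59% lower, and all genes 31.2% and 26.9%. CML42 stood at 0.53, 0.43 and 0.59 with water and 2.33, 2.36 and 2.44 with elf18 and rose 3.64-fold, by 1.86 ± 0.14 (adjusted p = 3.84e-11). CML30 rose by 1.24 ± 0.17 (adjusted p = 1.08e-06), whereas CML37 and CML38 fell as given above. After adjustment for the index 1 of the 8 was higher and 0 lower, and CML30 was not called (0.46, adjusted p = 0.565).

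U-box and RING ubiquitin ligases attach ubiquitin to proteins and include both activators and repressors of immunity. Of 13 measured genes named as plant U-box (PUB) or ATL-type RING proteins 8 were higher and 0 lower. Their median was 0.42 and their median length 1710 bases. Length bin 4 had 38.2% of genes higher and 18.6% lower, and all genes 31.2% and 26.9%. RING1, a RING ligase outside this list by its name, fell as given above. PUB26 stood at -0.77, -0.79 and -0.65 with water and 0.59, 0.53 and 0.54 with elf18 and rose 2.45-fold, by 1.29 ± 0.10 (adjusted p = 6.84e-11), and PUB25 rose by 1.13 ± 0.21 (adjusted p = 5.82e-05). PUB25 and PUB26 are close relatives that target BIK1. Neither gene overlapped between the groups. Under quantile normalization 5 members were higher and 3 lower, and after adjustment for the index 1 was higher, with PUB25 not called (1.57, adjusted p = 0.0833). PEX4, a ubiquitin-conjugating enzyme of peroxisomes, stood at -0.70, -0.71 and -0.61 with water and 0.98, 0.99 and 0.90 with elf18 and rose 3.1-fold, by 1.63 ± 0.08 (adjusted p = 6.38e-14).

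Autophagy genes encode the machinery that encloses cell contents for breakdown in the vacuole, with ATG8 as the ubiquitin-like protein anchored in the membrane. Of 11 measured genes 8 were higher and 2 lower, where 31.2% and 26.9% of all genes were, with a median of 0.82. All 8 rises were in genes of the ATG8 family. ATG8E stood at -0.73, -0.74 and -0.47 with water and 1.07, 1.46 and 1.45 with elf18 and rose 3.92-fold, by 1.97 ± 0.15 (adjusted p = 5.36e-11). ATG8B stood at -0.59, -0.57 and -0.46 with water and 1.19, 1.47 and 1.50 with elf18 and rose 3.8-fold, by 1.93 ± 0.13 (adjusted p = 9.37e-12). The groups were apart in both. ATG8F stood at -0.02, -0.09 and -0.07 with water and -0.79, -0.84 and -0.77 with elf18 and changed by -0.74 ± 0.09 (adjusted p = 2.3e-07). ATG3, the conjugating enzyme that loads ATG8 onto lipid, changed by -1.06 ± 0.16 (adjusted p = 5.75e-06) and turned positive after adjustment for the index (0.28, adjusted p = 0.675). In that fit 4 members were higher and 1 lower, and ATG8E was not called (0.96, adjusted p = 0.0982).

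Of 15 measured genes for SNAREs, the exocyst and their partners 8 were lower and 3 higher, with a median of -0.38 and a median length of 4659 bases. Across all genes 26.9% were lower and 31.2% higher, and in the bin of the longest genes 33.8% and 19.3%. SEC10, an exocyst subunit that tethers vesicles to the plasma membrane, stood at 0.18, 0.22 and 0.27 with water and -1.11, -2.04 and -1.21 with elf18 and fell 3.19-fold, a difference of -1.68 ± 0.17 (adjusted p = 1.15e-08). KEU, the SM protein KEULE that acts with SNAREs in cell division, stood at 1.15, 1.11 and 1.16 with water and -0.14, -0.44 and -0.75 with elf18 and fell 2.99-fold, a difference of -1.58 ± 0.15 (adjusted p = 2.97e-09). The groups were apart in both. SEC5A changed by -1.22 ± 0.14 (adjusted p = 5.98e-08) and the small GTPase RAB6A by -1.76 ± 0.25 (adjusted p = 1.74e-06). The synaptotagmin ATSYTF, which is not among the 15 genes, changed by -2.20 ± 0.15 (adjusted p = 7.94e-12). Among prenylated RAB acceptors, small membrane proteins with a median length of 1016 bases, 4 of 11 were higher and 0 lower, where 53.3% of the genes in length bin 2 were higher and 6.59% lower. The largest values were those of PRA1.E (1.62 ± 0.10, adjusted p = 1.11e-12) and PRA7 (1.56 ± 0.09, adjusted p = 5.25e-13). After adjustment for the index 0 of the 15 vesicle genes were called higher and 0 lower, and 4 of the RAB acceptors were higher.

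**Figure D4:**
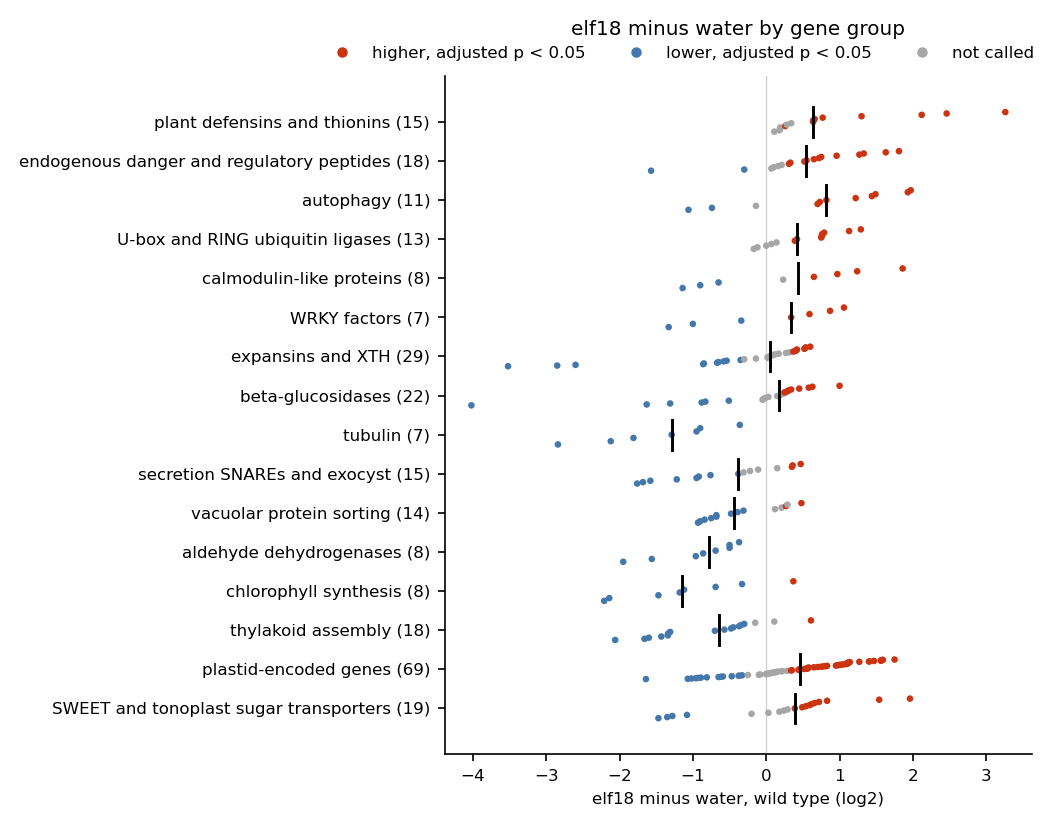
Difference elf18 minus water in wild type (log2) for each measured gene of 16 groups, with the number of genes in brackets; red points were called higher, blue lower and grey not called, and black ticks are group medians. Medians lie at 0.82 for autophagy and 0.64 for defensins and thionins, and at -1.29 for tubulin and -1.15 for chlorophyll synthesis.

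Of 29 measured expansins and xyloglucan endotransglucosylase/hydrolases (XTH), which loosen and rebuild the wall, 10 were lower and 8 higher, with a median of 0.05, close to the 26.9% lower and 31.2% higher over all genes. XTH18 stood at 4.24, 4.20 and 4.30 with water and 1.56, 1.87 and 1.51 with elf18 and fell 6.07-fold, a difference of -2.60 ± 0.15 (adjusted p = 5.92e-13). XTH19 stood at 3.35, 3.22 and 3.35 with water and 0.32, 0.83 and 0.22 with elf18 and fell 7.23-fold, a difference of -2.85 ± 0.15 (adjusted p = 6.06e-14). In both the groups were far apart. EXO, a wall protein induced by brassinosteroid, stood at 2.59, 2.51 and 2.61 with water and -0.16, -0.22 and -0.34 with elf18 and fell 7.01-fold, a difference of -2.81 ± 0.10 (adjusted p = 1.97e-16). These 3 genes were 1373 to 1513 bases long, all in length bin 3 of 10, whose median was 0.29. Adjusted for the index, 3 of the 29 were lower and 0 higher.

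All 7 measured tubulin genes were lower, where 26.9% of all genes were. Their median of -1.29 was -0.89 after adjustment for the index, where 4 were called lower. TUB5 stood at 0.44, 0.52 and 0.56 with water and -2.16, -2.33 and -2.48 with elf18 and fell 7.14-fold, a difference of -2.84 ± 0.10 (adjusted p = 1.99e-16). TUB6 fell 4.35-fold, a difference of -2.12 ± 0.12 (adjusted p = 3.56e-13). CSLC04, a glucan synthase for xyloglucan, changed by -1.48 ± 0.10 (adjusted p = 1.18e-11), TBL26, of a family that acetylates wall polymers, by -1.89 ± 0.12 (adjusted p = 2.94e-12), and the cellulase-family gene GH9C2 by -2.27 ± 0.23 (adjusted p = 7.18e-09). GH9C2 spread over more than 1 log2 unit within the elf18 group but did not overlap with water. DRT100, which encodes a leucine-rich repeat protein, stood at 0.31, 0.06 and 0.37 with water and -1.78, -2.10 and -2.20 with elf18 and fell 4.84-fold, a difference of -2.27 ± 0.15 (adjusted p = 5.65e-12). MMP, a matrix metalloproteinase of the cell surface, stood at 0.09, -0.24 and 0.17 with water and 2.26, 2.45 and 1.89 with elf18 and rose 4.58-fold, by 2.19 ± 0.21 (adjusted p = 2.24e-09), a call lost after adjustment for the index (0.90, adjusted p = 0.292).

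Most measured nuclear genes of chlorophyll synthesis, carbon fixation and the thylakoid were lower. Of 8 genes measured among 28 listed entries for chlorophyll synthesis 7 were lower and 1 higher, with a median of -1.15. Across all genes 26.9% were lower and 31.2% higher. PORB, which reduces protochlorophyllide in the light, stood at 0.06, 0.28 and 0.38 with water and -1.80, -1.90 and -2.20 with elf18 and fell 4.62-fold, a difference of -2.21 ± 0.12 (adjusted p = 1.13e-13). CHLM, a methyltransferase of the magnesium branch, fell 4.4-fold, a difference of -2.14 ± 0.11 (adjusted p = 3.22e-14). HEMA2, which encodes a glutamyl-tRNA reductase at the start of the pathway, stood at 2.38, 1.92 and 2.44 with water and 0.79, 0.61 and 0.95 with elf18 and changed by -1.47 ± 0.13 (adjusted p = 6.02e-10). After adjustment for the index 4 of the 8 were lower and 0 higher, at a median of -1.11, and HEMA2 was not called (-1.06, adjusted p = 0.0534).

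The 3 genes measured among 30 listed entries for the Calvin cycle and carbon fixation were all lower, where 26.9% of all genes were. PRK, phosphoribulokinase, stood at 0.57, 0.48 and 0.60 with water and -1.63, -1.59 and -1.54 with elf18 and fell 4.41-fold, a difference of -2.14 ± 0.10 (adjusted p = 5.23e-15). SBPASE, sedoheptulose-bisphosphatase, changed by -1.50 ± 0.09 (adjusted p = 6.88e-13) and RCA, rubisco activase, by -1.20 ± 0.09 (adjusted p = 6.86e-11). All 3 were also called lower after adjustment for the index. Of 18 genes of thylakoid complexes and their assembly 15 were lower and 1 higher, where 26.9% and 31.2% of all genes were. The 18 had a median of -0.64 and a median length of 1353 bases. PSBY, a small photosystem II protein, changed by -2.06 ± 0.10 (adjusted p = 2.05e-14), the antenna gene LHCB4.1 by -1.34 ± 0.09 (adjusted p = 6.38e-12) and LIL3:2, of the light-harvesting-like family, by -1.66 ± 0.11 (adjusted p = 1.91e-12). PSBW stood at -0.05, -0.07 and -0.02 with water and 0.01, 0.07 and 0.10 with elf18 and was not called (0.11 ± 0.08, adjusted p = 0.246). FTSZ2-1, a plastid division protein that is not among the 18 genes, changed by -2.20 ± 0.19 (adjusted p = 4.41e-10). Adjusted for the index, 9 of the 18 thylakoid genes were lower and 0 higher. Outside them, FTSZ2-1 was not called (-1.20, adjusted p = 0.124).

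Of 69 measured transcripts encoded in the plastid genome itself 39 were higher and 13 lower, where 31.2% and 26.9% of all genes were. Their median was 0.46, and their difference from the nuclear chloroplast genes was not tested. Plastid transcripts mostly lack the long poly(A) tails on which labelling usually starts. petG, a subunit of the cytochrome b6f complex, stood at -0.75, -0.87 and -0.21 with water and 0.96, 1.26 and 1.19 with elf18 and rose 3.36-fold, by 1.75 ± 0.20 (adjusted p = 6.55e-08). psaC, a photosystem I subunit, rose 3-fold, by 1.58 ± 0.13 (adjusted p = 1.91e-10). atpB, a subunit of the ATP synthase, stood at 0.21, 0.21 and 0.28 with water and -1.30, -1.30 and -1.63 with elf18 and fell 3.12-fold, a difference of -1.64 ± 0.11 (adjusted p = 7.2e-12), and atpA changed by -1.07 ± 0.14 (adjusted p = 6.12e-07). psaA stood at -0.14, 0.65 and 0.62 with water and -1.16, -0.74 and -0.04 with elf18, with overlapping groups and a difference of -1.02 ± 0.38 (adjusted p = 0.0261). That call was lost without elf18 replicate 1 (-0.76, adjusted p = 0.125) or 2 (-0.97, adjusted p = 0.0622), without water replicate 2 (-0.88, adjusted p = 0.0896) or 3 (-0.90, adjusted p = 0.0899), and with array weights (adjusted p = 0.0806). The median length of the plastid genes was 555 bases, and after adjustment for the index 12 were higher and 2 lower, with petG (1.35, adjusted p = 0.128) and atpA (-0.33, adjusted p = 0.62) not called and psaA positive (0.47, adjusted p = 0.824).

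Of 12 genes measured among 56 listed entries for starch, sucrose and sugar transport 3 were higher and 6 lower. Over all genes the shares were 31.2% and 26.9%, and the median of the 12 was -0.31. After adjustment for the index 2 of the 12 were higher and 5 lower. The starch genes of this list, SBE2.2, DPE1, APL3 (-1.50, adjusted p = 3.85e-10) and AMY1 (-0.43, adjusted p = 0.00844), were all lower, and the SWEET transporters included both rises and falls. Of 19 SWEET and tonoplast sugar transporters 10 were higher and 4 lower, where 31.2% and 26.9% of all genes were, with a median of 0.39. SWEET2, a vacuolar sugar transporter, stood at -0.94, -0.84 and -0.96 with water and 1.16, 1.05 and 0.94 with elf18 and rose 3.9-fold, by 1.96 ± 0.11 (adjusted p = 2.82e-13), and SWEET4 rose by 1.54 ± 0.12 (adjusted p = 6.53e-11). SWEET11, which exports sucrose for phloem loading, stood at 0.11, 0.24 and 0.13 with water and -1.30, -1.12 and -1.15 with elf18 and fell 2.56-fold, a difference of -1.35 ± 0.11 (adjusted p = 7.78e-11). SWEET13 changed by -1.28 ± 0.14 (adjusted p = 4.47e-08) and the tonoplast carrier TMT2 by -1.47 ± 0.12 (adjusted p = 2.23e-10). The starch branching enzyme gene SBE2.2 changed by -1.86 ± 0.16 (adjusted p = 5.58e-10), DPE1, an enzyme of starch breakdown, by -1.44 ± 0.12 (adjusted p = 3.97e-10), and PWD (AT5G26570), a kinase that phosphorylates starch, by -2.61 ± 0.18 (adjusted p = 7.72e-12). SWEET13 (-1.04, adjusted p = 0.101) and TMT2 (-0.96, adjusted p = 0.0591) were not called after adjustment for the index, where 2 of the 19 transporters were higher and 1 lower.

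Of 3 measured genes in the list of 32 entries for aliphatic glucosinolates, 2 were lower and 1, AOP3, was higher (0.38, adjusted p = 0.0252). Across all genes 26.9% were lower and 31.2% higher. The 4 genes that follow are outside that list and were picked after their values were seen. GTR1 and GTR2 import glucosinolates, the defence compounds of the cabbage family. GTR1 stood at 2.01, 2.18 and 2.29 with water and -0.28, -0.05 and -0.06 with elf18 and fell 4.9-fold, a difference of -2.29 ± 0.15 (adjusted p = 2.28e-12), and GTR2 changed by -0.89 ± 0.16 (adjusted p = 4.84e-05). UGT74B1, which adds the glucose in glucosinolate synthesis, stood at 1.39, 1.54 and 1.43 with water and -0.27, -0.38 and -0.30 with elf18 and fell 3.4-fold, a difference of -1.77 ± 0.10 (adjusted p = 1.71e-13). CBL, the cystathionine beta-lyase of methionine synthesis, changed by -1.87 ± 0.12 (adjusted p = 1.38e-12). In each of these genes every elf18 array lay below every water array.

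THIC, an enzyme of thiamine synthesis, stood at 0.89, 1.00 and 1.08 with water and -1.76, -1.71 and -1.72 with elf18 and fell 6.57-fold, a difference of -2.72 ± 0.10 (adjusted p = 1.97e-16). ACLB-1, a subunit of ATP-citrate lyase, changed by -2.68 ± 0.12 (adjusted p = 4.31e-15) and FDH, formate dehydrogenase, by -2.49 ± 0.15 (adjusted p = 1.43e-12). All 8 measured aldehyde dehydrogenases were lower, where 26.9% of all genes were, with a median of -0.78. Among them was ALDH10A8 (-1.95 ± 0.11, adjusted p = 2.44e-13), and 3 of the 8 were called lower after adjustment for the index. Of 14 glutathione transferases 5 were lower and 3 higher, where 26.9% and 31.2% of all genes were. After adjustment for the index 3 were lower and 1 higher, and their median length was 1244 bases. GSTL3 changed by -2.04 ± 0.10 (adjusted p = 5.22e-14) and GSTU20 by -1.24 ± 0.09 (adjusted p = 3.42e-11). The aspartic protease gene APA1 changed by -2.16 ± 0.11 (adjusted p = 6.06e-14).

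Some metabolic genes rose. ASPGB1, an asparaginase, stood at 0.36, -0.02 and 0.06 with water and 2.54, 1.70 and 2.27 with elf18 and rose 4.1-fold, by 2.04 ± 0.18 (adjusted p = 7.38e-10). UGT72E1, a glycosyltransferase of lignin precursors, rose by 1.65 ± 0.12 (adjusted p = 1.97e-11), the cytochrome P450 gene CYP84A4 by 1.79 ± 0.11 (adjusted p = 2.08e-12) and the class V chitinase gene ChiC by 1.38 ± 0.13 (adjusted p = 3.06e-09). The 2 chitinases moved in opposite directions, CHI down and ChiC up. ChiC was not called after adjustment for the index (0.74, adjusted p = 0.186).

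The design asks whether the elf18 response depends on TBF1, a heat shock factor-like transcription factor. The tbf1 response was taken from its own 6 arrays, and no array is shared with the wild type response. The difference tbf1 minus wild type was called in 15.5% of probe sets, positive in 2234 (9.82%) and negative in 1290 (5.67%). The same wild type arrays enter this difference and the contrast with SA given after it, and genes named for a large wild type change carry that value into both, so the sign of their differences is not read as a result. No probe set was named for TBF1, so the mutated gene was not analysed here. In tbf1 the 5' minus 3' index also fell with elf18, from 0.87, 0.90 and 0.77 to -0.32, -0.30 and -0.41.

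AT5G10830 had the most negative difference among named nuclear genes called for elf18 in wild type, with 1.97 in wild type and -0.23 in tbf1 (difference -2.20 ± 0.22, adjusted p = 2.82e-07). AT5G17910 changed by 1.52 and -0.58 (difference -2.10 ± 0.25, adjusted p = 3.42e-06), and AT5G65240 by 0.92 and -0.90 (difference -1.82 ± 0.26, adjusted p = 2.3e-05). These 3 rose in wild type and had a negative value in tbf1. In tbf1 the response of AT5G10830 was not called (adjusted p = 0.25), while AT5G17910 (adjusted p = 0.0104) and AT5G65240 (adjusted p = 0.000232) were called lower. The wild type call of AT5G65240 was lost after adjustment for the index (1.44, adjusted p = 0.0646). AT3G25130 and AT2G29500 were positive in both, at 2.60 and 0.72, and 2.70 and 0.89. The plastid gene psaA had the most negative difference among the named genes called for elf18 in wild type (-2.47 ± 0.54, adjusted p = 0.00242), on widely spread wild type values.

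PDF1.2 had one of the most positive differences, with 2.12 in wild type and 4.55 in tbf1 (difference 2.44 ± 0.19, adjusted p = 7.91e-09), and PDF1.2b gave 2.46 and 4.19 (difference 1.73 ± 0.13, adjusted p = 6.24e-09). The larger differences went with lower means after water in tbf1, -2.51 for PDF1.2 against 0.46 in wild type and -2.60 for PDF1.2b against -0.13. After elf18 the tbf1 means were below those of wild type, 2.04 against 2.57 for PDF1.2 and 1.59 against 2.33 for PDF1.2b, a contrast that was not tested. For PDF1.4, the difference of 0.35 ± 0.20 was not called (adjusted p = 0.29). BGLU44 gave -1.65 in tbf1 against -4.02 (difference 2.37 ± 0.18, adjusted p = 7.91e-09). EXLA1 gave -1.33 against -3.52 (difference 2.19 ± 0.17, adjusted p = 6.24e-09) and DRT100 -0.22 against -2.27 (difference 2.05 ± 0.22, adjusted p = 6.52e-07). AT1G29660 and AT1G73600 also had differences above 2, at 2.60 ± 0.40 and 2.51 ± 0.21.

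The elf18 and SA responses of wild type each have their own water control. They differ in agent, delivery, dose and time, which cannot be told apart. On the wild type spray arrays the 5' minus 3' index stood at 0.87, 0.75 and 0.71 with water and 0.27, 0.65 and 0.53 with SA. The difference of the 2 responses, elf18 minus SA, was called in 48.4% of probe sets, positive in 5442 probe sets (23.9%) and negative in 5559 (24.4%). CHI fell with elf18 (-3.28) and had 1.78 with SA, a difference of -5.06 ± 0.31 (adjusted p = 2.26e-12). AT5G55450, AT5G03350, AT5G59670, AT2G24160 and AT3G48650 likewise had negative elf18 and positive SA values, with differences from -5.23 ± 0.37 to -4.53 ± 0.19. The elf18 fall of AT5G55450 was not called after adjustment for the index (-0.24, adjusted p = 0.828).

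In the other direction, SWEET2 had 1.96 with elf18 and -1.85 with SA, a difference of 3.81 ± 0.16 (adjusted p = 2.8e-15). STOMAGEN had 0.65 and -3.34, a difference of 3.99 ± 0.21 (adjusted p = 9.96e-14), and AT4G21870 had 1.89 and -2.30, a difference of 4.19 ± 0.17. For AT5G48490 (4.83 ± 0.15) and AT5G01015 (4.19 ± 0.13) the elf18 value was small and the SA value strongly negative, and neither elf18 call was kept after adjustment for the index (-0.07, adjusted p = 0.905 and 0.26, adjusted p = 0.577). The 2 water controls also differed. Means after water spray and water infiltration were 2.99 and -0.45 for STOMAGEN, 3.53 and -0.58 for AT5G48490, 1.85 and -0.34 for AT5G01015, and -0.03 and -0.91 for SWEET2. AT4G21870 went the other way, at -1.69 and 0.93. This contrast was not tested. AT2G28710, the gene with the largest rise, had -0.40 with SA, a difference of 4.70 ± 0.13 (adjusted p = 9.53e-18). HYH had 1.96 and 1.68, and their difference of 0.28 ± 0.19 was not called (adjusted p = 0.235).

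**Figure D5:**
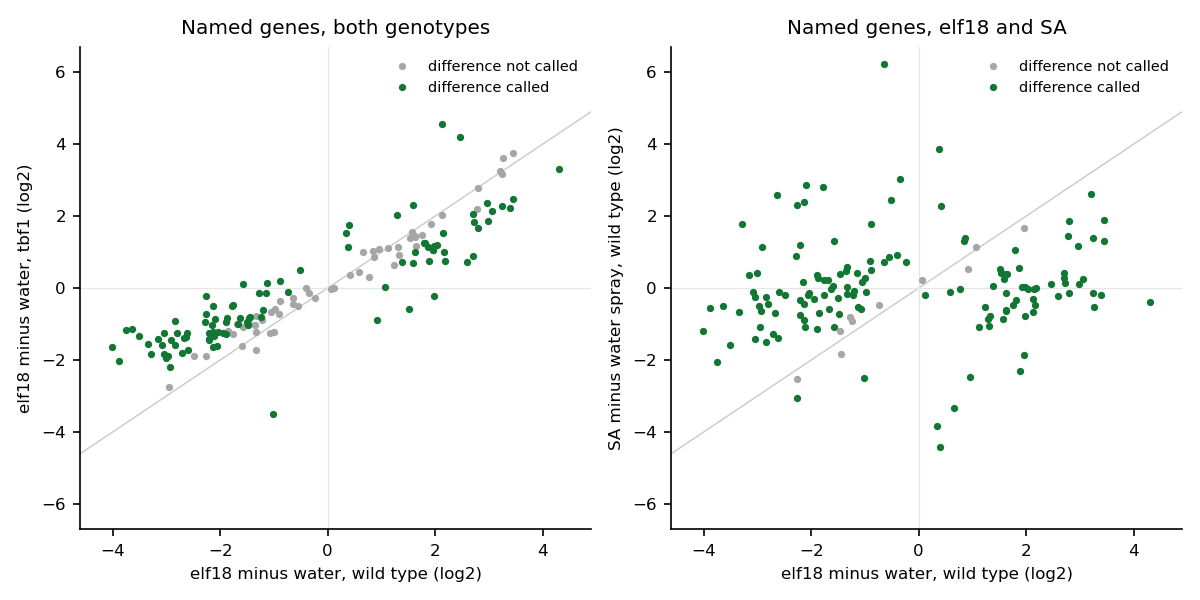
Response of each of the 149 named genes to elf18 in wild type (horizontal axes, log2) against its response to elf18 in tbf1 (left) and to SA in wild type (right); green points had a called difference between the responses, grey points did not, and the grey diagonal marks equal responses. PDF1.2 and PDF1.2b lie above the diagonal on the left, and CHI lies low on the horizontal axis and above 0 on the right.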

How the data were processed

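RNA from the leaves was extracted with TRIzol and amplified with the MessageAmp Premier kit, per the labels' protocols. The authors deposited log2 values made with RMA, per the submitters' processing notes, with no version given, and since no base is stated, base 2, the usual scale of that method, was assumed. In the deposited table each probe set is centred on its median over the 24 arrays, which removes its level and keeps differences between arrays.

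Of 22810 probe sets 64 controls were left out. The annotation gave 13513 of the others 1 gene name, 503 several and 8730 none; 13436 matched RefSeq (TAIR10.1). limma 3.58.1 in R 4.3.3 fitted all 24 arrays with 1 mean per group (16 residual degrees of freedom). Benjamini-Hochberg adjustment ran over 22746 probe sets, with calls at an adjusted p below 0.05. On simulated data for the elf18 comparison, of 50 probe sets changed by each size the fit recovered 50 at log2 -2, 47 at -1, 49 at 1 and 50 at 2, and called 13 unchanged ones. The simulated noise was normal, independent between probe sets and equally spread in all groups, with few probe sets changed. The real arrays differ from this, so the simulation does not give their rate of false calls. Gene lists used 1 value per gene, with several probe sets averaged in 145 genes. Differences are log2 ± SE, with n = 3 arrays per group and the SE from the spread pooled over all 24 arrays.

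The comparison, genes and lists were chosen with earlier results of these data known, 32 of 105 lists were added from annotation names, and list entries whose symbol belonged to another gene were removed after values were seen. The naming rule took the 16 largest rises and falls that were called without overlap, list members by size of change, all perception and marker genes, and the 6 most positive and negative differences of responses. Further genes (such as ARL, MMP, THIC, PWD and JRG21) were named after their values were seen, because their products are known. Alternatives were other sets of arrays, 2 scalings, a replicate block, the index as a covariate, array weights, robust shrinkage, plain probe sets and leaving out each array.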

Additional observations from a re-analysis of the deposited data

Results flagged for a closer look

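For 96 of the 149 named genes the test of the difference itself, tbf1 minus wild type in the elf18 response (log2, limma with Benjamini-Hochberg adjustment over 22746 probe sets), passed the threshold; over all probe sets 9.82% were positive and 5.67% negative. Most of these genes were named for the size of their wild type change, which enters the difference as well, so the balance of signs among them is not a result. Among the perception and marker genes, the difference was 0.99 for CML38 (adjusted p = 0.000361). Among the ER folding genes, the difference was 1.01 for ATERDJ3B and 1.07 for CRT1b (adjusted p from 0.00682 to 0.023). Among the largest rises, the difference was -1.18 for AT1G64405, -1.13 for AT5G60630, -1.12 for AT4G15140, -0.98 for AT2G28710, -0.97 for AT5G62150, -0.96 for AT1G28390, -0.90 for NRT2.5, -0.88 for AT2G41730, -0.65 for AT3G07590 and -0.62 for AT1G14200 (adjusted p from 6.64e-06 to 0.0237). Among the largest falls, the difference was 0.73 for AT1G65230, 1.07 for AT2G44500, 1.10 for AT3G59350, 1.20 for AT1G04430, 1.44 for CHI, 1.48 for RING1, 1.50 for AT2G32150, 1.75 for AT4G16190, 1.78 for AT1G61890, 1.80 for AT3G26450, 1.86 for PRXR1, 2.19 for EXLA1, 2.37 for BGLU44, 2.51 for AT1G73600 and 2.60 for AT1G29660 (adjusted p from 6.24e-09 to 0.0287). Among the peptide genes, the difference was -0.57 for RALFL31, 1.69 for RALFL22, 1.73 for PDF1.2b and 2.44 for PDF1.2 (adjusted p from 6.24e-09 to 0.0424). Among the transcription factors, the difference was -1.18 for tny, -1.03 for WRKY6, -0.89 for HYH, -0.60 for bZIP44 and 1.27 for ORA47 (adjusted p from 4.41e-05 to 0.0185). Among the hormone genes, the difference was -0.90 for JRG21, 0.77 for GRX480 and 0.96 for OPCL1 (adjusted p from 0.000679 to 0.00285). Among the calmodulin-like genes, the difference was -0.73 for CML42 (adjusted p = 0.012). Among the ubiquitin genes, the difference was 0.75 for PUB26 (adjusted p = 0.000572). Among the autophagy and trafficking genes, the difference was -0.80 for ATG8E, -0.61 for PRA1.E, 0.63 for ATG8F and 0.75 for ATSYTF (adjusted p from 0.00156 to 0.0178). Among the cell wall, tubulin and protease genes, the difference was -1.45 for MMP, 0.46 for CSLC04, 0.61 for TBL26, 0.78 for TUB6, 0.88 for XTH18, 1.27 for TUB5, 1.57 for EXO, 1.92 for XTH19 and 2.05 for DRT100 (adjusted p from 8.94e-08 to 0.0328). Among the chloroplast genes, the difference was -2.47 for psaA, 0.45 for PSBY, 0.51 for PRK, 0.54 for SBPASE, 0.58 for RCA, 0.68 for LIL3:2, 0.74 for psaC, 0.80 for PORB, 0.81 for atpB, 0.92 for CHLM and 0.96 for FTSZ2-1 (adjusted p from 0.000141 to 0.0324). Among the transport and metabolism genes, the difference was -0.90 for SWEET2, -0.84 for ASPGB1, -0.65 for ChiC, -0.54 for CYP84A4, 0.43 for GSTU20, 0.64 for DPE1, 0.65 for TMT2, 0.71 for ALDH10A8, 0.81 for GSTL3, 0.91 for THIC, 1.04 for CBL, 1.13 for APA1, 1.15 for SWEET13, 1.28 for ACLB-1, 1.28 for UGT74B1, 1.34 for GTR1 and 1.37 for PWD (adjusted p from 7.92e-07 to 0.0259). Among genes named for the difference itself, the difference was -2.20 for AT5G10830, -2.10 for AT5G17910, -1.88 for AT3G25130, -1.82 for AT5G65240 and -1.81 for AT2G29500 (adjusted p from 1.51e-07 to 2.3e-05). Among genes named for the contrast with SA, the difference was -1.14 for AT4G21870, 1.17 for AT5G01015, 1.24 for AT5G03350, 1.29 for AT5G55450, 1.29 for AT5G59670, 1.34 for AT5G48490, 1.54 for AT2G24160 and 1.64 for AT3G48650 (adjusted p from 1.02e-06 to 0.0185). No explanation was weighed for these differences.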

How the results depend on the processing

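Against 13221 called probe sets, the index as a covariate gave 3774 (1804 higher and 1970 lower) and a minimum of 2-fold gave 3614 (1196 higher and 2418 lower); for elf18 minus SA the index gave 5844 (2673 positive and 3171 negative). Leaving out each array in turn gave 11271 to 12487 calls (5664 to 6659 higher and 5607 to 5914 lower), 2824 to 3584 for the genotype difference (1760 to 2221 positive and 1029 to 1398 negative), 9770 to 10933 for elf18 minus SA (4618 to 5504 positive and 5152 to 5472 negative), and an index difference of -1.38 to -1.22. Of the 149 named genes 103 kept direction and side of the threshold with the index, 142 under quantile normalization and all 149 under median centring, the replicate block and robust shrinkage. With the index the sign turned for BIK1 (0.21, adjusted p = 0.697), PUB22 (-0.44, adjusted p = 0.434), CRT1b (0.67, adjusted p = 0.335), ATERDJ3B (1.48, adjusted p = 0.03), STOMAGEN (-0.11, adjusted p = 0.886), ZAP1 (0.35, adjusted p = 0.701), ATG3 (0.28, adjusted p = 0.675), psaA (0.47, adjusted p = 0.824), AT5G48490 (-0.07, adjusted p = 0.905), and for UGT76B1 (2.75, adjusted p = 0.0139) and PSBW (-0.01, adjusted p = 0.984), neither called in the fit of all 24 arrays without index, weights or rescaling; UGT76B1 was called lower with the 6 arrays alone (-0.64, adjusted p = 0.0037), array weights (-0.64, adjusted p = 0.0489) and quantile normalization (-0.62, adjusted p = 0.0463). The cause was not tested. Replicate numbers did not pair the arrays: deviations of same-numbered arrays correlated at 0.05, -0.01 and -0.01, and the replicate block gave 7244 higher and 6177 lower calls. Precision is limited by 3 arrays per group, and signal over background cannot be read from centred values.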
